A study of Mus musculus with 6 samples.

Results

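The 39 genes described here encode the proteins by which mouse hepatocytes take up and activate fatty acids, carry them into mitochondria, oxidize them there and in peroxisomes, and turn the acetyl-CoA into ketone bodies. They were chosen by gene symbol, by a rule that uses no measured value but with earlier results of these data known, and all 39 are among the 23282 genes of the deposited table. Primary hepatocytes of the C57BL6/N mouse genotype were cultured for 24 h either with recombinant IL-1β protein (3 samples) or without treatment (control, 3 samples). The series asked how this cytokine changes hepatocyte gene expression in the setting of steatohepatitis. RNA was sequenced by the QuantSeq method, which primes on the poly(A) tail and reads the 3′ end of each mRNA, so that 1 read stands for about 1 mRNA fragment irrespective of gene length. No source states whether the 3 samples of a group came from separate animals, and p-values therefore measure the spread between these cultures. The description deposited with the series speaks of 2 samples per group, but 3 are listed and their counts were all analysed. A concentration of the recombinant proteins is given in the sources for another assay on such cultures, and was not tied there to the sequenced ones.

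In mitochondrial β-oxidation, an acyl-CoA enters through the carnitine shuttle, with carnitine palmitoyltransferase I at its gate, and is then shortened by repeated rounds of dehydrogenation, hydration, dehydrogenation and thiolysis. Peroxisomes shorten very long and branched chains with their own set of enzymes and pass the products on as carnitine esters or free acids. In fasting liver, the nuclear receptor PPARα, paired with RXR on a DNA element called DR1, turns on many of these genes, and the excess acetyl-CoA leaves the cell as acetoacetate and β-hydroxybutyrate.

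The libraries held between 9538741 and 11105408 counts, of which the ribosomal RNA precursor Rn45s took 11.7% to 14.2%, and the principal component with the largest variance (51.6%) separated the control from the IL-1β samples. Of the 17 hepatocyte marker genes examined, 14 could be tested, 9 were lower and 0 higher after IL-1β by edgeR (0 higher also at an unadjusted p below 0.05, in DESeq2 and in the edgeR exact test), and their summed level was 28802 to 28983 CPM in the controls and 24183 to 25911 CPM after IL-1β. CPM denotes counts scaled to a common library total. Albumin (Alb) was abundant in every sample, whereas the hepatocyte marker Cps1 was at 1.79 to 3.22 CPM and Ass1, Pck1 and G6pc had too few counts to be tested, so levels are not compared between genes here. Of 13 Kupffer cell and macrophage markers, 10 were tested and 0 passed an adjusted p of 0.05 in edgeR or DESeq2, while 3 were higher at an unadjusted p below 0.05 and 1 was higher in the edgeR exact test. Their summed level was 221 to 249 CPM in the controls and 226 to 255 CPM after IL-1β, of which Cd68 made up 172 to 204 CPM. The defining markers Clec4f, Vsig4 and Timd4 had too few counts to be tested. All 3 IL-1β samples lay above all 3 controls for 2 of the 10 tested markers, against 14% of all genes tested. These were Marco and Cd74 (edgeR adjusted p = 0.141 and 0.0658). The IL-1β samples lay below all controls for 1 marker, against 14.2% of all genes tested. This was Cd5l, at 19.25 to 20.48 CPM in the controls and 16.04 to 18.69 CPM after IL-1β (edgeR adjusted p = 0.392). Of 10 sinusoidal endothelial markers, all tested, 3 were lower (30%, against 6.44% of all genes tested) and 1 was higher (10%, against 6.97%). The lower ones were Clec4g, Kdr and Dnase1l3, with log2 fold changes of -2.87, -1.49 and -1.73, and the higher one was Lyve1 (0.45). The median was -0.41. A group mean of 10 CPM was reached by 3 of the 10, Eng, Lyve1 and Cdh5, and by none of the lower ones. The sum of the list, mostly Eng and Lyve1, was 85.8 to 94.0 CPM in the controls and 83.2 to 87.7 CPM after IL-1β. Of 8 cholangiocyte markers, Spp1 and Sox9 could be tested. Spp1 fell from 190 ± 1.95 to 82.7 ± 5.17 CPM (SD, n = 3, edgeR adjusted p = 4.36e-12), Sox9 was at 134 ± 5.31 and 155 ± 5.86 CPM (SD, n = 3, edgeR adjusted p = 0.0519), and the list summed to 316 to 329 CPM in the controls and 237 to 240 CPM after IL-1β. The stellate cell markers, of which 2 of 10 were tested and neither passed, summed to 20.7 to 25.1 CPM and 22 to 27.9 CPM. Of 8 neutrophil and lymphocyte markers, 5 had 0 counts in every sample and 2 were tested. The neutrophil marker S100a8 was at 0 counts in the controls and at 2.03 to 4.74 CPM after IL-1β. Ptprc, the other tested marker, overlapped between the groups (log2 fold change -0.11, edgeR adjusted p = 0.918). The list summed to 1.79 to 4.04 CPM in the controls and 3.95 to 8.27 CPM after IL-1β. In bulk RNA, fewer hepatocytes and less RNA per hepatocyte cannot be told apart, and the part of the marker differences in the results below was not tested.

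In the IL-1β-treated cultures, 13 of these genes took a smaller share of the counted mRNA and 2 took a larger one. The largest decrease was that of Bdh1, the enzyme that interconverts acetoacetate and β-hydroxybutyrate, which fell by 76.8%. It was followed by the acyl-CoA thioesterase Acot4, the peroxisomal thiolase Acaa1b, the thioesterase Acot12, and Cpt1a, the liver form of carnitine palmitoyltransferase I. Acsl1 and Echs1 rose. Of the 39 members, 37 had enough counts to be tested, and edgeR's quasi-likelihood p-values were adjusted by the Benjamini-Hochberg method over all 11657 genes tested. At an adjusted p below 0.05, 13 of the 37 were lower (35.1%, against 6.44% of all genes tested) and 2 were higher (5.41%, against 6.97% of all genes tested). A log2 fold change (log2FC, positive where higher after IL-1β) below 0 was found for 33 of the 37, against 50.4% of all genes tested, and their median was -0.23, against -0.0018 for all genes tested. The 14 tested hepatocyte markers all had a log2FC below 0, with a median of -0.32, and 64.3% of them were called lower. A decrease was thus not particular to the members. All 3 IL-1β samples lay below all 3 controls for 21 of the 37 (14.2% of all genes tested did so) and above them for 3 (14% of all genes tested). The summed level of the 39 members was 1842 to 1883 CPM in the 3 control samples and 1572 to 1580 CPM in the 3 IL-1β samples. Acot4 entered the test through its control samples, since its IL-1β samples held only 5 to 15 counts.

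**Figure D1:**
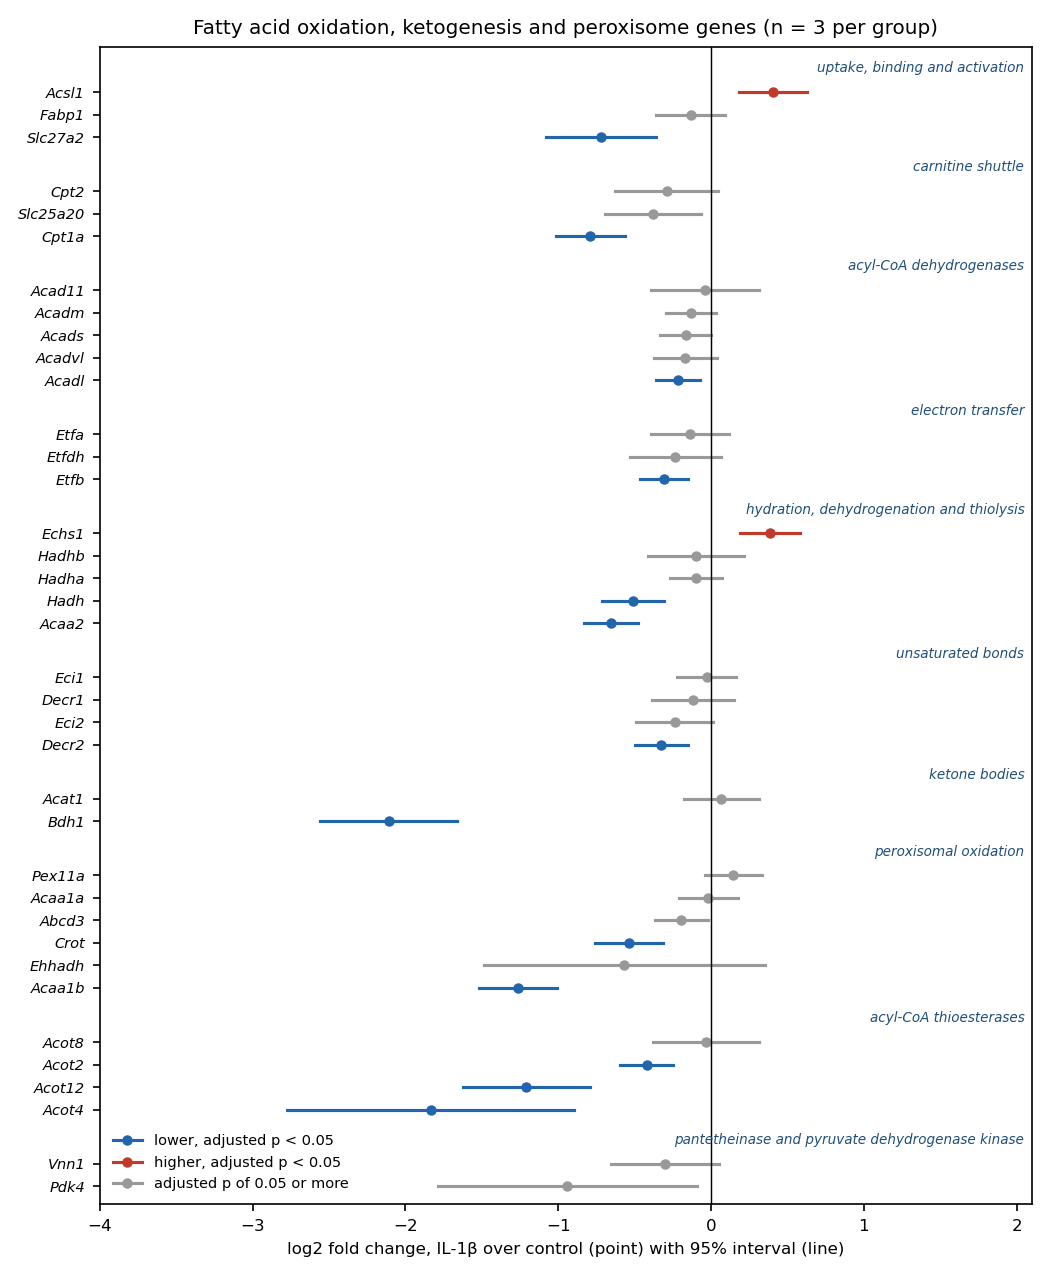
Log2FC of IL-1β over control for each of the 37 tested members, grouped by role (points, with lines for 95% intervals, n = 3 per group, gray for an adjusted p of 0.05 or more). Most points lie left of 0, the 13 blue ones from -0.22 for Acadl to -2.11 for Bdh1, while Acsl1 and Echs1 stand to the right in red at 0.41 and 0.38.

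Of the 3 genes for uptake, binding and activation, 1 rose, 1 fell and 1 did not pass the test. Acsl1, which couples long-chain fatty acids to coenzyme A, was at 29.3, 36.7 and 33.8 CPM in the control samples and at 45.3, 43.8 and 43.1 CPM after IL-1β. Every IL-1β sample was above every control, and the log2FC was 0.41 (standard error, s.e., 0.11, adjusted p = 0.0111), although the adjusted p was 0.0527 without control replicate 1. Slc27a2, a transporter and synthetase for very long chains, was at 17.6, 15.7 and 17 CPM in control hepatocytes and at 10.8, 11.8 and 7.9 CPM after IL-1β, again without overlap. It fell by 0.72 on the log2 scale (s.e. 0.17, adjusted p = 0.00524), and the adjusted p was 0.0523 without IL-1β replicate 3. Fabp1, the liver fatty acid-binding protein, was at 34.0 ± 1.20 CPM (SD, n = 3) in controls and 31.0 ± 1.18 CPM (SD, n = 3) after IL-1β. Every IL-1β sample lay below every control, but the log2FC of -0.13 had an adjusted p of 0.52 and a 95% interval from -0.36 to 0.09.

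In the carnitine shuttle, Cpt1a (chr19:3323301-3385733, plus strand, GRCm38) makes the acylcarnitine that crosses into mitochondria and is the rate-limiting step of the route. It was at 55.4, 47.2 and 45.1 CPM in control hepatocytes and at 27.6, 27.9 and 30.0 CPM after IL-1β, with a wide gap between the groups. The means were 49.2 ± 5.45 and 28.5 ± 1.34 CPM (SD, n = 3), a log2FC of -0.79 (s.e. 0.11, adjusted p = 7.39e-06) that is 42.1% lower. The carrier Slc25a20, which exchanges acylcarnitine for carnitine across the inner membrane, had a log2FC of -0.38 (adjusted p = 0.113). All 3 of its IL-1β samples lay below the controls, at 13.5 to 17.5 CPM against 17.9 to 24.0 CPM, and its adjusted p was 0.0351 without control replicate 1. Cpt2, which reforms acyl-CoA inside, overlapped between the groups, with a log2FC of -0.29 (adjusted p = 0.303). The 95% interval for Cpt2 ran from -0.63 to 0.05, and the step from Cpt1a to Cpt2 was not compared by a test of its own.

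Of the 5 acyl-CoA dehydrogenases, which open each round of oxidation for chains of different length, Acadl (long chains) was the 1 that passed the test. Acadl was at 184, 193 and 191 CPM in control samples and at 170, 164 and 154 CPM after IL-1β. The groups did not overlap, but the log2FC was small at -0.22 (s.e. 0.069, adjusted p = 0.0366), and leaving out any sample other than control replicate 1 gave an adjusted p between 0.0603 and 0.18. For Acadvl (very long chains), Acadm (medium chains) and Acads (short chains), the log2FCs were -0.17, -0.13 and -0.17, with adjusted p of 0.332, 0.339 and 0.215. The IL-1β samples of Acadvl and Acads all lay below the controls, whereas Acadm overlapped. Acad11 had a log2FC of -0.04 with an interval from -0.39 to 0.32, which leaves a change of either direction possible at this depth.

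The electrons of these dehydrogenases pass to the flavoprotein ETF, made of the subunits Etfa and Etfb, and then to the quinone reductase Etfdh. Etfb was at 118, 114 and 126 CPM in controls and at 97.9, 96.9 and 95.2 CPM after IL-1β. It fell by 0.31 on the log2 scale (s.e. 0.075, adjusted p = 0.00611), and every IL-1β sample lay below every control. Etfa and Etfdh had log2FCs of -0.14 and -0.23 (adjusted p = 0.58 and 0.361). Etfa overlapped between the groups, and the IL-1β samples of Etfdh all lay below the controls. The ratio of Etfb to Etfa within a sample differed by -0.17 on the log2 scale (IL-1β minus control) and overlapped between the groups (exact permutation test, two-sided p = 0.4). In the last 500 nt of the Etfb transcript, 45.8% of the 75-nt windows also occur in another annotated gene, Gm45233, so the count may be split between them.

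The later steps of the mitochondrial spiral did not move as a block. Hadh, the dehydrogenase for medium and short chains, was at 62.7, 56.9 and 71.2 CPM in control hepatocytes and at 44.0, 45.8 and 43.8 CPM after IL-1β, a log2FC of -0.51 (s.e. 0.098, adjusted p = 0.000521). Acaa2, the thiolase that releases acetyl-CoA, was at 96.1, 90.0 and 96.6 CPM and at 57.3, 57.0 and 64.9 CPM. It fell by 0.66 on the log2 scale (s.e. 0.086, adjusted p = 3.11e-06), or by 36.6%. Echs1, the short-chain enoyl-CoA hydratase that acts just before Hadh, went the other way. Its level was 44.4, 48.4 and 55.2 CPM in controls and 63.0, 65.1 and 65.1 CPM after IL-1β, a log2FC of 0.38 (s.e. 0.096, adjusted p = 0.00658). In all 3 genes the samples of the groups were separated.

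Hadha and Hadhb encode the subunits of the trifunctional protein, which carries out the last 3 steps for long chains, and lie head to head on chromosome 5 with 272 bases between them. Hadha was at 95.7 ± 2.34 CPM (SD, n = 3) in controls and 89.3 ± 8.44 CPM (SD, n = 3) after IL-1β, and Hadhb at 18.4 ± 1.92 and 17.2 ± 2.45 CPM. Both had a log2FC of -0.10, with adjusted p of 0.544 and 0.775. Within a sample the ratio of Hadhb to Hadha differed by 0.0032 on the log2 scale (exact permutation test, two-sided p = 0.9), and its samples overlapped.

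Unsaturated chains need an isomerase or a reductase before they can enter the spiral, and 1 of the 4 genes for this passed the test. Decr2, the peroxisomal 2,4-dienoyl-CoA reductase, was at 104, 102 and 106 CPM in the control samples and at 85.1, 89.9 and 74.1 CPM after IL-1β. Its 3 IL-1β samples lay below the controls, and it fell by 0.33 on the log2 scale (s.e. 0.083, adjusted p = 0.00845), with an adjusted p of 0.0875 without IL-1β replicate 3. Its mitochondrial counterpart Decr1 overlapped between the groups, with a log2FC of -0.12 (adjusted p = 0.663). The isomerases Eci1 and Eci2 had log2FCs of -0.03 and -0.24 (adjusted p = 0.905 and 0.252). Eci1 overlapped between the groups, and the IL-1β samples of Eci2 all lay below the controls. The within-sample ratio of Decr2 to Decr1 differed by -0.22 and that of Eci2 to Eci1 by -0.20 on the log2 scale, and neither was separated between the groups (exact permutation test, two-sided p = 0.2 for both).

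Ketone bodies are made from acetoacetyl-CoA, which Acat1 can form in mitochondria, and Bdh1 reduces the acetoacetate to β-hydroxybutyrate. Bdh1 (chr16:31422297-31458901, plus strand, GRCm38) was at 22.8, 20.9 and 13.2 CPM in control hepatocytes and at 4.92, 4.03 and 4.28 CPM after IL-1β. Control replicate 3 was low for its group and still stood far above the highest IL-1β sample. The log2FC was -2.11 (s.e. 0.22, 95% interval -2.56 to -1.66, adjusted p = 5.84e-08), and it stayed between -2.31 and -1.96 with any 1 sample left out. Acat1 was at 34.0 ± 0.697 CPM (SD, n = 3) in controls and 35.7 ± 6.04 CPM (SD, n = 3) after IL-1β, for a log2FC of 0.07 (adjusted p = 0.81). Its direction turned to -0.07 without IL-1β replicate 1, the highest of the group at 42.5 CPM.

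**Figure D2:**
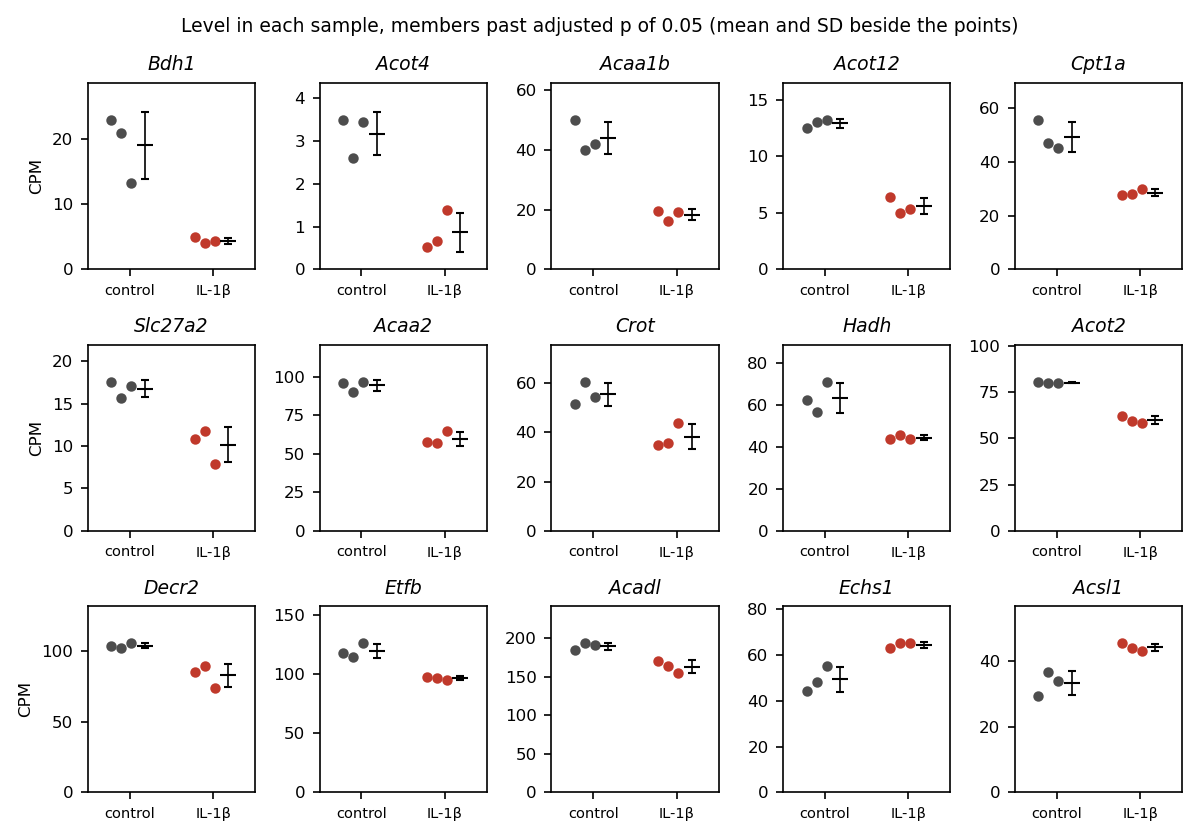
Level in CPM (linear axis from 0, a scale for each gene) of the 15 members that passed an adjusted p of 0.05, for 3 control samples (gray) and 3 IL-1β samples (red), with the mean and SD beside the points. In each panel the groups are apart, from Bdh1 at 13.2 to 22.8 against 4.03 to 4.92 CPM to Acsl1 at 29.3 to 36.7 against 43.1 to 45.3 CPM.

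In peroxisomes, the last step of β-oxidation is made by the thiolases Acaa1a and Acaa1b, near-identical copies whose genes lie on opposite strands of chromosome 9 with 184200 bases between them. Acaa1b (chr9:119148043-119157093, minus strand) was at 50.0, 40.1 and 42.1 CPM in control hepatocytes and at 19.7, 16.1 and 19.2 CPM after IL-1β. It fell by 1.26 on the log2 scale (s.e. 0.12, adjusted p = 2.9e-08), which is 58.4% lower. Acaa1a (chr9:119341294-119350295, plus strand) was at 52.5, 51.9 and 52.2 CPM in controls and at 46.9, 54.0 and 53.6 CPM after IL-1β. Its samples overlapped, and its log2FC was -0.02 (adjusted p = 0.947) with a 95% interval from -0.21 to 0.18. The log2 ratio of Acaa1b to Acaa1a within each sample was -0.07, -0.37 and -0.31 in controls and -1.23, -1.71 and -1.46 after IL-1β. This difference of -1.22 separated all samples (two-sided exact permutation p = 0.1, the least possible with 3 samples against 3, adjusted p = 0.4 over the 8 ratios compared). In the last 500 nt, 32.9% of the 75-nt windows of Acaa1a and 29.3% of those of Acaa1b occur in the other gene, so some reads could have been counted on either. The sum of both was 96.3 ± 5.51 CPM (SD, n = 3) in controls and 69.9 ± 3.15 CPM (SD, n = 3) after IL-1β, for a log2FC of -0.46 (s.e. 0.083, adjusted p = 0.000239).

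The sequences upstream of the start of both thiolase genes are shown because Acaa1b passed the test and Acaa1a did not, while part of their 3′ ends is shared. Each gives the 250 bases before the start on the gene's own strand, 5′ to 3′, from RefSeq on GRCm38.p6, with CCAAT boxes (CCAAT, either strand) and GC boxes (GGGCGG, either strand) in capitals.
Acaa1a (chr9:119341044-119341293, plus strand): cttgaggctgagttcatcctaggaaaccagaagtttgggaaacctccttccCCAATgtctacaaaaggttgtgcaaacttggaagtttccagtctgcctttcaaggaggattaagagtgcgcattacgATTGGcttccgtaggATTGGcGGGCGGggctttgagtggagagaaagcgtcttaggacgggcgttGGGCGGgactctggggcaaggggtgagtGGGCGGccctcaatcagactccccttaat
Acaa1b (chr9:119157094-119157343, minus strand): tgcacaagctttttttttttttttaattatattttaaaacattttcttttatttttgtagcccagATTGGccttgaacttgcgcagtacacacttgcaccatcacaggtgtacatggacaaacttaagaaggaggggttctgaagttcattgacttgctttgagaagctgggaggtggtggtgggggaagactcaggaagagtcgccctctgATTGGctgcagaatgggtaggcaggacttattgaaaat
The stretch of Acaa1a held 3 CCAAT boxes and 3 GC boxes, and that of Acaa1b held 2 CCAAT boxes and 0 GC boxes. Among 32851 windows of 300 bases around gene starts in the RefSeq table, 37.4% held a CCAAT box and 35.7% a GC box. A match describes the letters of these windows and was not tested as a site.

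The other peroxisomal members divided. Crot, which makes medium-chain carnitine esters for export from peroxisomes, was at 51.6, 60.5 and 54.2 CPM in controls and at 34.9, 35.7 and 44.0 CPM after IL-1β. The groups were separate, and Crot fell by 0.54 on the log2 scale (s.e. 0.11, adjusted p = 0.000833). Abcd3, the membrane transporter for long-chain acyl-CoA, had all 3 IL-1β samples (67.3 to 74.5 CPM) below the controls (78.8 to 83.9 CPM), yet its log2FC of -0.19 had an adjusted p of 0.143. Pex11a, which takes part in peroxisome division, had all 3 IL-1β samples above the controls, at 54.4 to 55.9 against 48.9 to 51.5 CPM, with a log2FC of 0.14 (adjusted p = 0.368). Ehhadh, the peroxisomal bifunctional enzyme, had only 13 to 34 counts per library, and its log2FC of -0.57 (adjusted p = 0.502) had an interval from -1.48 to 0.35, so that no difference was detectable at this depth.

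Acyl-CoA thioesterases split acyl-CoA into free acid and coenzyme A. Acot2, Acot1, Acot4 and Acot3 lie in this order within a cluster on chromosome 12, with 15626, 20709 and 7427 bases between neighbors, and act in mitochondria (Acot2), the cytosol (Acot1) and peroxisomes (Acot3 and Acot4). Acot2 was at 80.5, 79.9 and 79.8 CPM in the controls and at 62.1, 59.2 and 58.1 CPM after IL-1β, a log2FC of -0.42 (s.e. 0.084, adjusted p = 0.000757) with separate groups. Acot4 had 37, 29 and 34 counts in the control libraries and 5, 7 and 15 counts in the IL-1β libraries. It fell by 1.83 on the log2 scale (s.e. 0.45, 95% interval -2.77 to -0.90, adjusted p = 0.00636), and the width of the interval goes with these low counts. Acot1 had 3 to 12 counts per library, too few to be tested, and Acot3 had 0 counts in all 6 libraries, where a count of 0 allows up to 3 counts, for counting error only. None of the 75-nt windows in the last 500 nt of these 4 transcripts occurred in another gene. Summed over the 4 genes, the level was 83.8 ± 1.18 CPM (SD, n = 3) in controls and 61.3 ± 1.75 CPM (SD, n = 3) after IL-1β, for a log2FC of -0.45 (adjusted p = 0.000306).

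Outside the cluster, Acot12 (chr13:91741521-91786148, plus strand), the cytosolic enzyme that hydrolyzes acetyl-CoA, was at 12.5, 13.1 and 13.2 CPM in controls and at 6.41, 5.0 and 5.39 CPM after IL-1β. The control values were close together and all far above the IL-1β values, and Acot12 fell by 1.21 on the log2 scale (s.e. 0.20, adjusted p = 8.99e-05), which is 56.7% lower. The peroxisomal Acot8 overlapped between the groups, with 12.7 CPM in 1 IL-1β sample and 20.2 and 21.9 CPM in the others, and its log2FC was -0.03 (adjusted p = 0.945).

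Within-sample ratios of related members, which depend little on library scaling, were compared for 8 pairs. Of these, the ratio of Acaa1b to Acaa1a and that of Acot4 to Acot3 were separated between the groups, and the latter only restates the level of Acot4 over the pseudocount of 0.5 CPM, since Acot3 was at 0. The adjusted p over the 8 ratios was 0.4 or more for each. The ratio of Acot2 to Acot1 differed by -0.58 and that of Ehhadh to Hadha by -0.30 on the log2 scale, both with overlap (exact permutation test, two-sided p = 0.4 and 0.5).

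**Figure D3:**
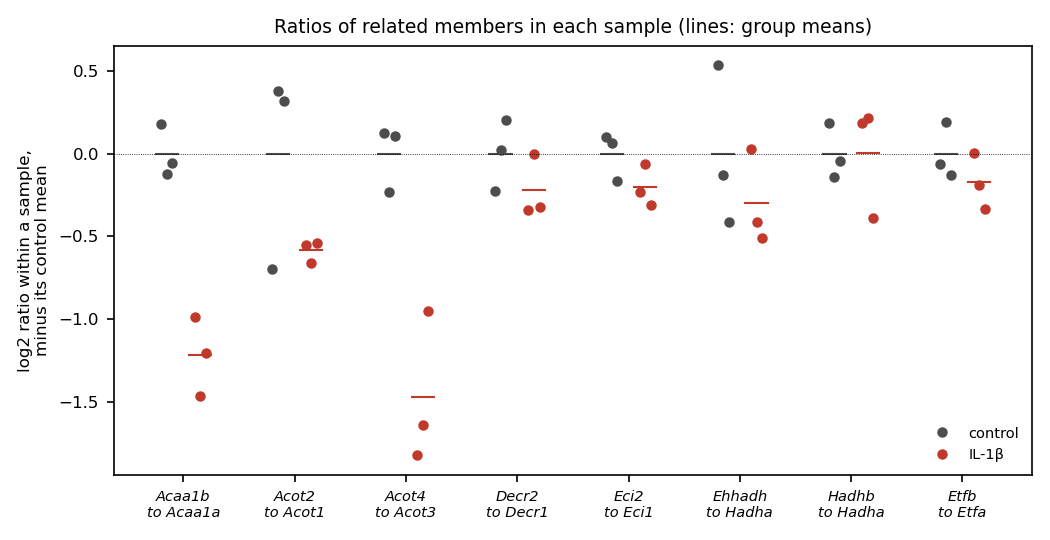
Log2 ratio of 8 pairs of related members within each sample, shown relative to the control mean of that pair (gray for control, red for IL-1β, lines for group means, n = 3 per group). The IL-1β points of Acaa1b to Acaa1a lie about 1.22 below the control mean and clear of the controls, whereas those of Hadhb to Hadha surround it.

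The remaining members were Vnn1, which releases pantothenate from pantetheine, and Pdk4, the kinase that shuts pyruvate dehydrogenase when fat is burned. Vnn1 was at 15.5, 18 and 17.5 CPM in controls and at 12.2, 11.4 and 17.8 CPM after IL-1β. Its groups overlapped through the highest IL-1β sample, and the log2FC was -0.30 (adjusted p = 0.313). Pdk4 was at 2.22 to 4.51 CPM in controls and at 1.02 to 2.21 CPM after IL-1β, a log2FC of -0.94 (adjusted p = 0.151) from 11 to 48 counts per library.

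DR1, the element of PPARα with RXR and also a form bound by HNF4α, was searched as AGGTCANAGGTCA on both strands with up to 2 mismatches, in windows from 250 bases before to 50 bases after each RefSeq start. Windows of 35 of the 39 members were searched, and 6 of these members held a match, in 15.385% of their 39 windows against 3.86% of all 32851 windows. The matches are shown with 10 bases on each side on the gene's own strand, 5′ to 3′, from RefSeq on GRCm38.p6, with the match in capitals.
Acot12 (chr13:91741401-91741433, plus strand): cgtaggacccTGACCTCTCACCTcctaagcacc
Acot4 (chr12:84038356-84038388, plus strand): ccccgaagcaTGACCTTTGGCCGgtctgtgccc
Echs1 (chr7:140116482-140116514, minus strand): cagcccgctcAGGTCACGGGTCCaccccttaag
Etfa (chr9:55512298-55512330, minus strand): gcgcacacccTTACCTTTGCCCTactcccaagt
Fabp1 (chr6:71199802-71199834, plus strand): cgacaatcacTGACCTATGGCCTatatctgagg
Slc25a20 (chr9:108662132-108662164, plus strand): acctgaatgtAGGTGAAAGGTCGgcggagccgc
Of these 6 genes, Acot12 (match at position -110 from the start, 1 mismatch, minus strand) and Acot4 (position -13, 2 mismatches) fell, and Echs1 (position -83, 2 mismatches) rose. Fabp1 (position -67, 1 mismatch), Etfa and Slc25a20 did not pass the test. The HNF4 sequence CAAAGTCCA was found without mismatch in 1 of the 35 searched members, Abcd3, and in 0.475% of all windows. A match describes letters in a window, and neither the presence nor the absence of 1 was tested against the response.

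The factors that bind or control such elements were examined in a list of 31 regulators, of which 29 were tested, 3 were lower and 0 higher by edgeR, with 1 higher at an unadjusted p below 0.05 and 0 higher in DESeq2 and the edgeR exact test. The 3 lower genes were 10.3% of those tested, while 6.44% of all genes tested were lower and 6.97% higher. Creb3l3, a membrane-bound factor of the fasted liver, was at 40.2, 42.2 and 27.5 CPM in controls and at 5.13, 2.59 and 4.09 CPM after IL-1β, a log2FC of -3.23 (s.e. 0.20, adjusted p = 6.11e-12). Hnf4a fell by 1.04 on the log2 scale (adjusted p = 1.62e-09) and Pparg by 1.28 (adjusted p = 0.00176). Ppara itself was at 19.3, 22.2 and 23.3 CPM in controls and at 28.7, 23.6 and 22.1 CPM after IL-1β, with a log2FC of 0.20 (adjusted p = 0.417) and a 95% interval from -0.08 to 0.48. Its partner Rxra had a log2FC of -0.01 (adjusted p = 0.955) and the coactivator Ppargc1a one of -0.40 (adjusted p = 0.423). The median over the list was -0.04.

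Of 43 other genes named as PPARα targets, 32 were tested, with a median of -0.28. Of these 32, 6 were lower (18.8%, against 6.44% of all genes tested) and 4 higher (12.5%, against 6.97%). Plin2, which coats lipid droplets, fell from 954 ± 33.8 to 694 ± 29.1 CPM (SD, n = 3; log2FC -0.46, adjusted p = 3.49e-06), and Gpd1, glycerol-3-phosphate dehydrogenase, fell by 0.75 (adjusted p = 4.99e-05). Ctsb, a lysosomal protease, rose by 0.59 (adjusted p = 7.37e-08) and Gyk, glycerol kinase, by 0.53 (adjusted p = 0.000272) on the log2 scale.

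The genes around the members in the same organelles were given by lists of their own. Of 15 peroxisome biogenesis genes, all tested, 0 were lower and 0 higher by edgeR, with a median of 0.00, and the counts were also 0 at an unadjusted p below 0.05, in DESeq2 and in the edgeR exact test. Of 26 other peroxisomal genes tested, 3 were lower (11.5%, against 6.44% of all genes tested) and 1 higher (3.85%, against 6.97%). Their median was -0.11. Scp2, whose product includes a thiolase for branched chains, fell by 0.32 on the log2 scale (adjusted p = 0.00797), and Pxmp2, a channel of the peroxisomal membrane, by 0.82 (adjusted p = 0.00205).

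Another 29 genes of mitochondrial fatty acid oxidation were tested, with a median of -0.07. Of these 29, 3 were lower (10.3%, against 6.44% of all genes tested) and 2 higher (6.9%, against 6.97%). The acyl-CoA synthetases differed among themselves. Acsl5 fell by 0.31 on the log2 scale (adjusted p = 0.00262), while Acsl4 and Acsl3 rose by 0.41 and 0.37 (adjusted p = 0.00273 and 0.022), as did the member Acsl1. The adjusted p of Acsl4 was 0.0526 without IL-1β replicate 2, and that of Acsl3 was 0.0511 to 0.16 without control replicate 1 or 3 or IL-1β replicate 1 or 3. Acot13, a mitochondrial thioesterase, fell by 0.36 (adjusted p = 0.000288).

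Of 8 tested genes of ketogenesis and ketone transport, 0 were lower and 1 was higher by edgeR (12.5%, against 6.97% of all genes tested). At an unadjusted p below 0.05, 2 were lower, and 0 were lower in DESeq2 and the edgeR exact test. The higher gene was Slc16a1, the monocarboxylate transporter MCT1, at 109, 111 and 105 CPM in controls and at 261, 239 and 263 CPM after IL-1β, a log2FC of 1.23 (s.e. 0.071, adjusted p = 1.09e-12). Of 31 genes of the tricarboxylic acid cycle and mitochondrial mass, 1 was lower, Idh2 with a log2FC of -0.57 (adjusted p = 0.00542), and 0 were higher by edgeR, with a median of -0.01. The share lower was 3.23%, against 6.44% of all genes tested. At an unadjusted p below 0.05, 1 of the 31 was higher, and 0 were in DESeq2 and the edgeR exact test. The adjusted p of Idh2 was 0.0565 without IL-1β replicate 1. Over the 7 lists together, 16 of 170 tested genes were lower (9.41%, against 6.44% of all genes tested). A further 8 were higher (4.71%, against 6.97%), and the median was -0.06.

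**Figure D4:**
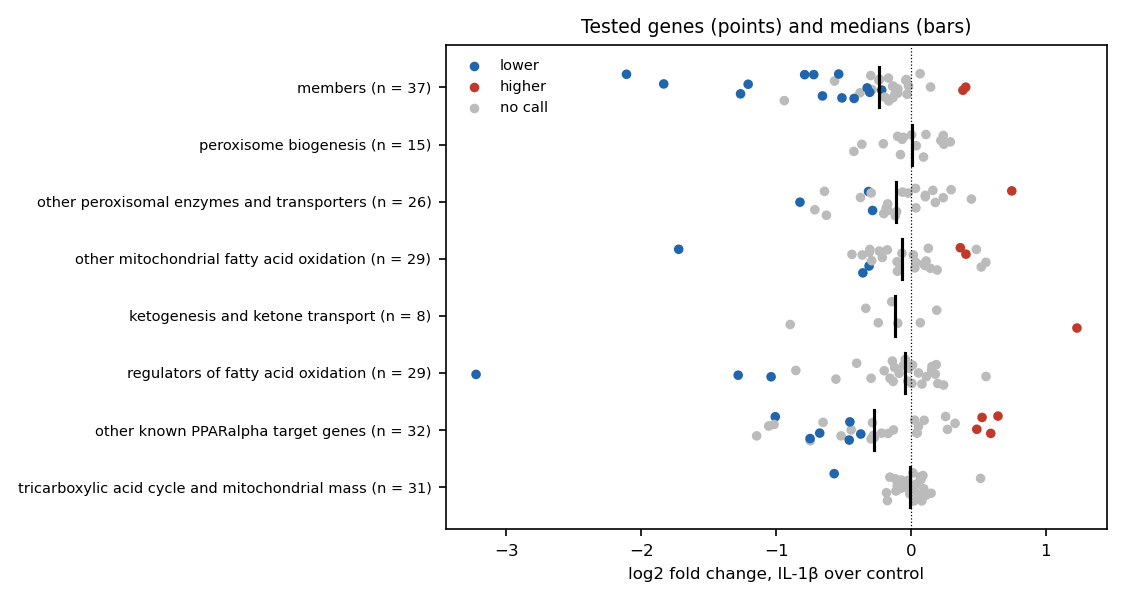
Log2FC of IL-1β over control for the 37 tested members and for the tested genes of 7 surrounding lists (points, blue for lower, red for higher, gray for an adjusted p of 0.05 or more, bars for medians). The bar of the members is at -0.23, that of the peroxisome biogenesis genes at 0.00 and that of the tricarboxylic acid cycle genes at -0.01, and the point farthest left is Creb3l3 at -3.23.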

How the data were processed

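The authors aligned single-end reads of 75 nt with Bowtie2 to mm10 (GRCm38) and deposited raw read counts per gene, with no normalization, for 6 samples. The counting tool and the treatment of reads with several matches are not given in the sources used here. The authors also deposited log2 values of TMM-normalized CPM plus 1 with their group means, and, for the comparison, a linear fold change (ratio) with a p-value that was not adjusted, none of which entered a result. Raw counts were filtered with filterByExpr, normalized by TMM and tested with the quasi-likelihood test of edgeR 4.0.16 in R 4.3.3, without covariates. A positive log2 fold change is higher after IL-1β. Ratios of CPM plus 0.5 were compared by exact permutation tests in scipy 1.17.1. The edgeR code was tested on simulated data with 200 changed genes. The 39 members, the gene lists and the tests were chosen with earlier results of these data known. Any member was named by its role, and of each list up to 4 genes with the smallest adjusted p and at least 10 CPM, the regulators Ppara, Rxra, Ppargc1a, Hnf4a and Creb3l3, and leading or defining cell type markers were named. Cps1, Ass1, Pck1, G6pc, Clec4f, Vsig4, Timd4, Marco, Clec4g, Kdr and Dnase1l3 were named after their values were seen. Some genes that the rule selects are left out. Alternatives were DESeq2 1.42.0, the edgeR exact test, upper-quartile and total-count scaling, other filters, the replicate number as a block, omission of Rn45s or of each sample, an adjusted p of 0.01, and pseudocounts of 0.1 and 1. Protein, qPCR and human data of the study were not analysed here.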

Additional observations from a re-analysis of the deposited data

How the results depend on the processing

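All 15 member calls held under DESeq2, the edgeR exact test, upper-quartile or total-count scaling, no filter, and omission of Rn45s, and 14 held where every sample had to hold 10 counts, since Acot4 was then not tested. With 1 sample left out, 12 to 14 held, and the number higher was 1 to 2. Among the genes of the 7 lists, the number higher was then 5 to 9. At an adjusted p below 0.01, 537 genes were higher and 459 lower in all, 1 member was higher and 5 list genes were higher. Total-count scaling moved the median of all genes to -0.0555 and the share higher among calls from 52% to 39.6%, and the member median to -0.29.

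With 1 sample left out, log2 fold changes close to 0 crossed it, with ranges of -0.20 to 0.12 for Acad11, -0.175 to 0.0205 for Hadhb, -0.0977 to 0.0231 for Eci1, -0.206 to 0.00334 for Decr1, -0.0691 to 0.159 for Acat1, -0.0487 to 0.0504 for Acaa1a, -0.178 to 0.172 for Acot8 and -0.0592 to 0.0556 for Rxra, and of -0.10 to 0.20 for the log2 ratio of Hadhb to Hadha. The cause was not tested.

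Same-numbered samples deviated from their group means with correlations of 0.062, 0.0079 and 0.0038. Such small values cannot settle whether same-numbered samples shared a preparation, and the main fit treated the samples as unpaired. With the replicate number as a block, 859 genes were higher and 812 lower, against 812 higher and 751 lower without the block. Of the members, 2 were higher and 13 lower, the 15 genes called without the block.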
